A study of Mus musculus with 19 samples.

Results

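The 10 postsynaptic scaffold genes Dlg, Dlgap and Shank of mouse hippocampal neurons are described here across silenced, untreated and hyperactive cultures. They are Dlg2, Dlg3 and Dlg4, Dlgap1 to Dlgap4, and Shank1 to Shank3. They were chosen by gene name, and all 10 are among the 24058 gene names of the expression files. The cultures came from hippocampi of embryonic day 17 (E17) mice and were grown for 10 days in vitro. RNA-seq covered 3 libraries from cultures silenced with TTX, a toxin that closes voltage-gated sodium channels and so stops action potentials, 3 untreated libraries and 3 libraries after 3 h of Bic/4AP. Bic/4AP is bicuculline, which blocks GABA-A receptors, given with 4-aminopyridine, which blocks potassium channels. How long TTX was applied is not stated in the sources used here. Samples for RNA and chromatin came from ICR mice without a genetic change named in the labels. Chromatin was profiled for H3K27ac, an acetylation mark of active promoters and enhancers, in 2 untreated and 2 Bic/4AP samples. H3K4me1, a mark of enhancers, was profiled in 2 untreated samples. DNA methylation came from 1 bisulfite library for each of the 3 treatments, from C57BL/6 mice, so it was not measured in the animals of the other assays. The labels do not say whether the 3 libraries of a treatment are separate cultures or litters. The p-values therefore rest on library-to-library spread that could be technical.

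The postsynaptic density is a protein sheet under the membrane of excitatory synapses. In it, Dlg proteins of the MAGUK class (Dlg4 encodes PSD-95, Dlg2 PSD-93 and Dlg3 SAP102) hold NMDA receptors, AMPA receptor auxiliary proteins, potassium channels and adhesion molecules through PDZ domains. Dlgap proteins (GKAP or SAPAP) bind the guanylate kinase domain of Dlg proteins and the PDZ domain of Shank proteins, and Shank proteins bind Homer and link the sheet to actin. Turnover of these scaffolds is a known part of how hippocampal synapses are scaled when activity changes.

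Promoters of 7 of the 10 genes are in the RefSeq table of the GRCm38.p6 assembly, with 13 start sites in all. Entries for Dlgap2, Shank1 and Shank2 are missing. Of the 13 promoters, 5 are shown. Those of Dlgap4 and Shank3 are CpG-dense, with little methylation within 1 kb of the start site. Both of Dlgap1 are shown and differ in methylation and H3K27ac. The one of Dlg2 is CpG-poor, and H3K27ac cover differed after it. Each runs from 250 bases before the start site to 50 bases from it on, 5′ to 3′ on the plus strand, with CpG dinucleotides in capitals.
Dlgap4, chr2:156720715-156721014: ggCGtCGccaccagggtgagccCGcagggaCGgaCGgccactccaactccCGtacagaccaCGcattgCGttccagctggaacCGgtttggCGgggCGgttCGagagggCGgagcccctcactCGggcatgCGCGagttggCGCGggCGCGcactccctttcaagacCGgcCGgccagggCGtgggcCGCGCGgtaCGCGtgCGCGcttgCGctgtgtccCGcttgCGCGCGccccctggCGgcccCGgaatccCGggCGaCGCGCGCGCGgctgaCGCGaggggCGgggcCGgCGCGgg
Shank3, chr15:89499358-89499657: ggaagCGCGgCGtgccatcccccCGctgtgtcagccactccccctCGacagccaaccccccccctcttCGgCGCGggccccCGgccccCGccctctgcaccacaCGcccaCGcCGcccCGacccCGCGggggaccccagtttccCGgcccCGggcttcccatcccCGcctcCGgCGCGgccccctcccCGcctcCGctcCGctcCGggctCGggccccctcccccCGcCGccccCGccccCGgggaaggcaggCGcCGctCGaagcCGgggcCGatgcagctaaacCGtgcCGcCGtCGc
Dlgap1 first start site, chr17:69968823-69969122: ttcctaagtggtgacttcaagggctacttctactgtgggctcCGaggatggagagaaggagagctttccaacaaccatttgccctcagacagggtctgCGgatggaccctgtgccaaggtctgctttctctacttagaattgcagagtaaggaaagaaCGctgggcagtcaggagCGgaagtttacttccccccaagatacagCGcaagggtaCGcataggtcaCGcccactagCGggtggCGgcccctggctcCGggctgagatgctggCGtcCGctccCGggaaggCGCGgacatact
Dlgap1 second start site, chr17:70561497-70561796: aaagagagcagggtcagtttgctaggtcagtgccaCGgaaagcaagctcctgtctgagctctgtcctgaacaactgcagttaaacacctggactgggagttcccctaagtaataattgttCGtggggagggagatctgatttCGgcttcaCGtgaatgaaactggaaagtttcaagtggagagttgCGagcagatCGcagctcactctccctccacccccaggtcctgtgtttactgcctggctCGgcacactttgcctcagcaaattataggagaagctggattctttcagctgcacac
Dlg2, chr7:91090536-91090835: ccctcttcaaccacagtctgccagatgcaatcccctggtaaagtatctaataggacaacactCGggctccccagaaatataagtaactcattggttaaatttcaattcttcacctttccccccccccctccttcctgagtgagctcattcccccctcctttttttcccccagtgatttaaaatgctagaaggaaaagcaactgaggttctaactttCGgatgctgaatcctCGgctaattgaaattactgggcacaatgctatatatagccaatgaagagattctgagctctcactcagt
The Dlgap4 promoter held 50 CpGs at 76.3% G and C, and the Shank3 promoter 40 CpGs at 81% G and C. The first Dlgap1 promoter held 15 CpGs, the second 7, and this Dlg2 promoter 3 at 44.7% G and C. A set of 6 motifs, chosen after other values had been seen, was searched on both strands. The full cyclic AMP response element TGACGTCA was found in 0 of the 13 promoters, against 1.79% of 32851 promoters of this length. The AP-1 motif TGANTCA and the MEF2 motif were also found in 0 of 13, against 7.81% and 0.164%. The EGR motif GCGNGGGCG was found in 2 of 13, against 5.55%: once in Dlgap4 as GCGCGGGCG starting 110 bases before the start site, and in Shank3 on the minus strand, which reads on the plus strand as CGCCCACGC and CGCCCCCGC starting 146 and 22 bases before it. The SP1 motif GGGCGG was in 4 of 13 (Dlg3, Dlg4, Dlgap4 and Shank3), against 35.7%, and 3 of its 4 Shank3 matches overlap an EGR match. The shorter element TGACG, which is also part of the full element, was in 3 of 13 (Dlg3, Dlg4 and Dlgap4), against 20.8%. These matches describe letters and not bound sites.

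The expression values are RPKM (reads per kilobase of gene, scaled to library size), so levels can be compared between genes. Library sizes were 9.68 to 12.6 M reads with TTX, 5.63 to 9.97 M untreated and 4.34 to 4.59 M with Bic/4AP. Each of the 10 genes had at least 269 reads in every library. The activity gene Fos stood at 185 ± 8.87 RPKM (SD, n = 3) with Bic/4AP, at 9.76 ± 2.5 untreated and at 15.2 ± 1.24 with TTX. It was thus called higher with TTX than untreated (limma adjusted p = 0.00111). Of the activity genes Arc and Npas4, Arc was called lower with TTX (limma adjusted p = 1.37e-04) and Npas4 did not pass (limma adjusted p = 0.0796). Activity itself was not measured. In these bulk samples, fewer cells of a type and less RNA per cell cannot be told apart. Summed markers of neurons were 977 to 1010 RPKM with Bic/4AP, 592 to 718 untreated and 575 to 644 with TTX. In the same order, those of interneurons were 571 to 587, 303 to 350 and 351 to 399, those of astrocytes 202 to 233, 135 to 145 and 172 to 194, and those of the oligodendrocyte lineage 22.2 to 28.7, 23 to 29.7 and 43 to 52.1. Their part in the results below was not tested. Summed markers of the choroid plexus, a secretory epithelium beside the hippocampus, were 481 to 719 RPKM untreated, 23.8 to 32 with TTX and 39.3 to 44.8 with Bic/4AP. All 12 of these markers were lower with each drug than untreated, and none was at 0 in all 9 libraries.

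The scaffold genes were all well expressed. Means over the 9 libraries placed the lowest of the 10, Shank2, above 72.9% and the highest, Dlg2, above 97.8% of the 14801 genes tested. In untreated cultures the order of mean RPKM was Dlg2 (65.3), Dlg4 (57.2), Shank1 (50.4), Dlgap1 (46.4), Dlgap2 (40), Shank2 (33.4), Dlgap4 (32.2), Dlg3 (30.5), Shank3 (30.2) and Dlgap3 (26.7). Each neighbour in this order overlapped the next over the 3 libraries, except Shank3 and Dlgap3. With Bic/4AP the order was Dlg2 (91.6), Dlg4 (58.2), Dlgap1 (39.2), Shank1 (31), Dlg3 (25.4), Shank3 (25.2), Dlgap4 (23.2), Dlgap3 (19.5), Shank2 (16.8) and Dlgap2 (15.4). There the neighbours Dlg3 and Shank3 overlapped, as did Shank2 and Dlgap2, while the others were apart. With TTX, Dlg2 (56.2) and Dlg4 (54.9) again stood first and overlapped, and Dlgap2 (23.6) stood last.

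**Figure D1:**
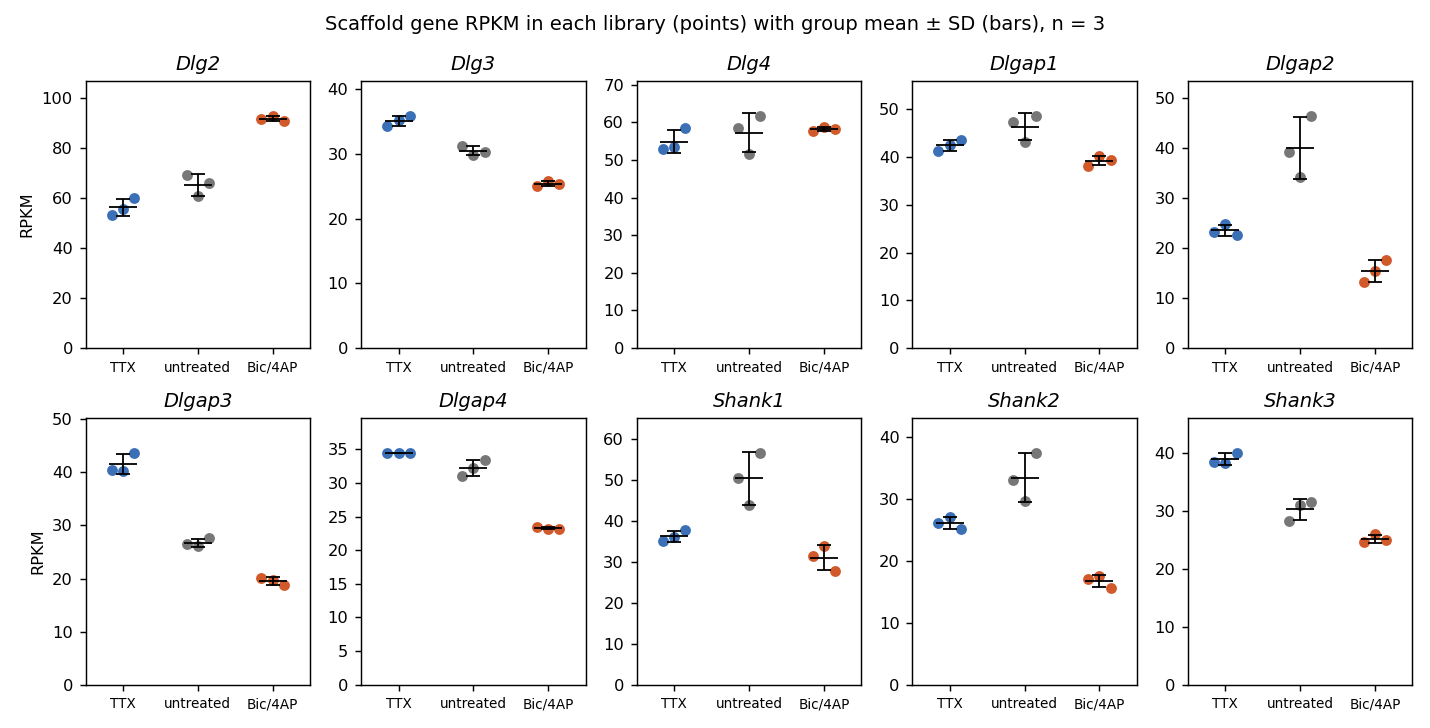
RPKM of the 10 scaffold genes (vertical axes, each from 0) in the 3 TTX, 3 untreated and 3 Bic/4AP libraries. Points are libraries and bars are the group mean ± SD. Dlg2 is highest with Bic/4AP, Dlgap3 and Shank3 are highest with TTX, and Dlgap2, Shank1 and Shank2 are highest untreated.

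Treatment for 3 h with Bic/4AP was followed by lower RNA of most scaffold genes. Against untreated cultures, 8 of the 10 were lower, Dlg2 was higher and Dlg4 did not pass the test (limma on log2(RPKM + 1), Benjamini-Hochberg adjusted p of 0.05 over 14801 genes). Of all genes tested, 42.5% were called lower and 29.6% higher, 72.1% in either direction. The 3 libraries of each group did not overlap for 9 of the 10 genes, against 71.3% of all genes. The median difference was -0.34 on the log2 scale over the 10 genes and -0.12 over all genes tested, and the median size of the difference was 0.45 and 0.47. The 8 falls thus stand beside a background in which most genes changed. When genes were split into 10 equal classes of rising mean level, these 8 genes lay in classes 8 and 9. The median differences of all genes in those classes were 0.00 and 0.20 as deposited.

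The Dlg genes went different ways. Dlg2, which encodes PSD-93, had 69.3, 60.6 and 66.0 RPKM in the untreated libraries and 91.4, 92.8 and 90.7 with Bic/4AP. All 3 Bic/4AP libraries were above all untreated ones, a 1.4-fold higher mean, with a log2 difference of 0.48 (SE 0.063, limma adjusted p = 2.25e-05). Quantile scaling gives all libraries the same distribution, and cyclic loess scaling evens out level-dependent differences between libraries. After these scalings the rise of Dlg2 was lost, and its difference was -0.01 and -0.03 in that order. These scalings moved the median of all genes by 0.18 and 0.14. As deposited, the tenth of genes with the highest levels, which holds Dlg2 and Dlg4, had a median difference of 0.45. Dlg4, which encodes PSD-95, had 58.4, 51.6 and 61.7 RPKM in untreated cultures and 57.6, 58.8 and 58.2 with Bic/4AP. Its groups overlapped, with a difference of 0.03 (95% interval -0.12 to 0.17, limma adjusted p = 0.726), but after quantile and cyclic loess scaling it was called lower, at -0.32 and -0.38. Dlg3, which encodes SAP102 and lies on the X chromosome, had 31.3, 29.9 and 30.3 RPKM in untreated cultures and 25.1, 25.9 and 25.3 with Bic/4AP. It was lower in every Bic/4AP library, by a log2 difference of -0.25 (SE 0.048, limma adjusted p = 4.66e-04).

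All 4 Dlgap genes fell with Bic/4AP. Dlgap2 fell most of the 10 genes: 39.3, 34.2 and 46.5 RPKM untreated against 13.2, 15.4 and 17.6 with Bic/4AP. The Bic/4AP mean was 0.385 times the untreated mean, a log2 difference of -1.32 (SE 0.11, limma adjusted p = 6.65e-07). Dlgap4 was at 31.0, 32.2 and 33.4 RPKM in untreated cultures and at 23.4, 23.2 and 23.1 with Bic/4AP, with a difference of -0.46 (SE 0.048, limma adjusted p = 4.20e-06). The Bic/4AP libraries of Dlgap4 had an SD of 0.146 RPKM. Dlgap3 had 26.5, 26.1 and 27.6 RPKM in untreated cultures and 20.1, 19.7 and 18.7 with Bic/4AP, a difference of -0.44 (SE 0.055). Dlgap1, which encodes GKAP, showed the smallest fall of the family. It had 47.4, 43.1 and 48.6 RPKM in untreated cultures and 38.2, 40.1 and 39.3 with Bic/4AP, a difference of -0.24 (SE 0.055, limma adjusted p = 0.00213) that was -0.43 and -0.49 after quantile and cyclic loess scaling.

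The 3 Shank genes also fell. Shank2 had 33.1, 29.6 and 37.5 RPKM in untreated cultures and 17.1, 17.5 and 15.7 with Bic/4AP, a mean 0.503 times as high and a log2 difference of -0.95 (SE 0.08, limma adjusted p = 6.36e-07). Shank1 had 50.6, 43.9 and 56.7 RPKM in untreated cultures and 31.4, 33.9 and 27.8 with Bic/4AP, a difference of -0.68 (SE 0.091). Shank3, whose loss in people causes Phelan-McDermid syndrome, had 28.2, 30.9 and 31.5 RPKM in untreated cultures and 24.6, 25.9 and 24.9 with Bic/4AP. Its difference was smaller, -0.25 (SE 0.055, limma adjusted p = 0.00137). The 8 falls were also called after quantile and cyclic loess scaling and without any 1 library.

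**Figure D2:**
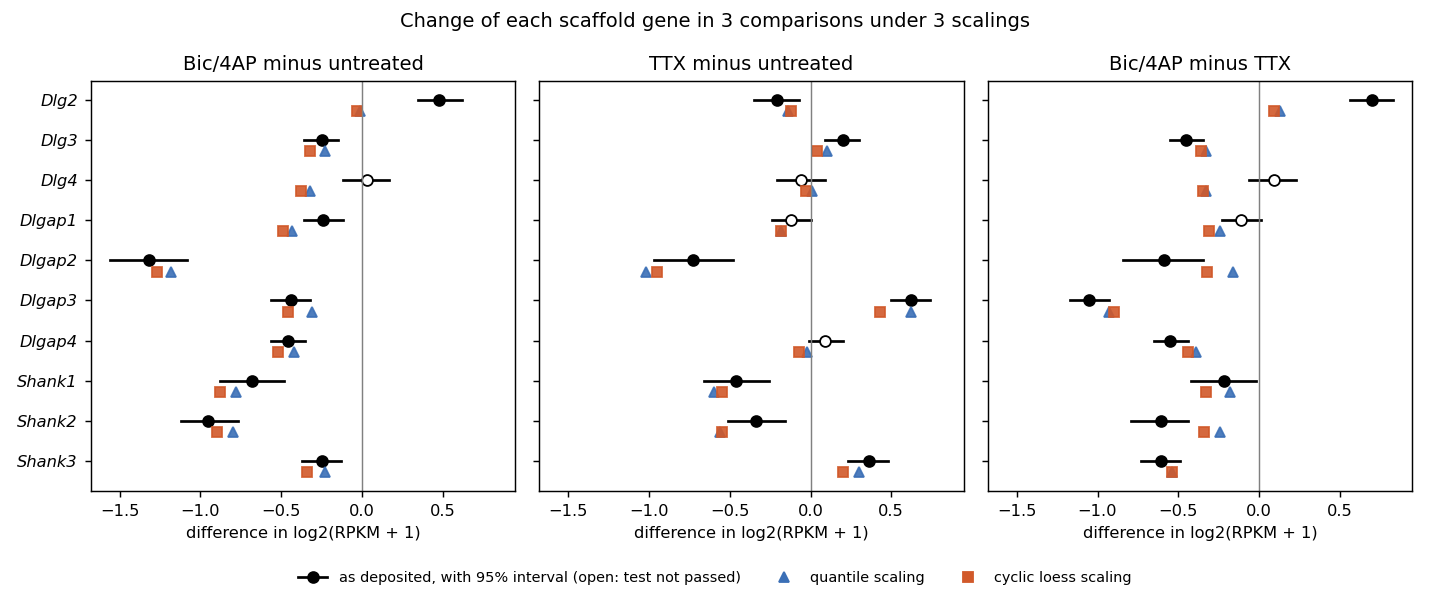
Difference in log2(RPKM + 1) (horizontal axis) of each scaffold gene in 3 comparisons. Circles are the values as deposited with 95% intervals, open where the test was not passed, and triangles and squares are the values after quantile and cyclic loess scaling. Dlg2 moves from 0.48 to near 0 and Dlg4 from 0.03 to below 0 under these scalings in the left panel, while Dlgap2, Shank1 and Shank2 stay below 0.

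Silencing with TTX split the genes in both directions. Against untreated cultures Dlg3, Dlgap3 and Shank3 rose, Dlg2, Dlgap2, Shank1 and Shank2 fell, and Dlg4, Dlgap1 and Dlgap4 did not pass. Of all genes tested, 40.6% were called higher and 23.5% lower, 64.1% in either direction. Groups did not overlap for 8 of the 10 genes, against 69.6% of all genes, and the median difference was -0.09 over the 10 genes and 0.13 over all genes. In level classes 8, 9 and 10, which hold the scaffold genes, the median over all genes was 0.18, 0.10 and -0.08.

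Dlgap3 rose most. It had 40.5, 40.3 and 43.7 RPKM with TTX, 1.55 times the untreated mean, a log2 difference of 0.62 (SE 0.055, limma adjusted p = 3.62e-06). Shank3 had 38.4, 38.2 and 40.0 RPKM with TTX, every library above every untreated one, and a difference of 0.36 (SE 0.055, limma adjusted p = 1.68e-04) that was 0.20 after cyclic loess scaling. Dlg3 had 34.3, 35.2 and 35.9 RPKM with TTX and a difference of 0.20 (SE 0.048, limma adjusted p = 0.00329), which was 0.10 after quantile scaling and 0.04, no longer called, after cyclic loess scaling. With TTX these 3 genes were thus above, and with Bic/4AP below, their untreated values.

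Dlgap2, Shank1 and Shank2 were below untreated with either drug. Dlgap2 had 23.2, 24.8 and 22.7 RPKM with TTX, a log2 difference of -0.73 (SE 0.11, limma adjusted p = 1.57e-04). Shank1 had 35.0, 36.0 and 37.7 RPKM with TTX, a difference of -0.46 (SE 0.091, limma adjusted p = 9.16e-04). Shank2 had 26.1, 27.1 and 25.2 RPKM with TTX, a difference of -0.34 (SE 0.08, limma adjusted p = 0.00309) that was -0.56 and -0.55 after the scalings. Both comparisons use the same untreated libraries. In those, untreated library 2 was the lowest and library 3 the highest for each of these 3 genes, and summed choroid plexus markers had the same order, 663, 481 and 719 RPKM. Dlg4, Dlgap1, Dlgap3 and the summed markers of excitatory hippocampal neurons (450, 393 and 459 RPKM) had this order too. The other scaffold genes and marker lists did not have it. The part of this order in the result was not tested. Without untreated library 2 or any other single library the 3 falls were still called.

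Dlg2 had 53.3, 55.6 and 59.8 RPKM with TTX, each below every untreated library, with a log2 difference of -0.21 (SE 0.063, limma adjusted p = 0.011). Without TTX library 1 it was -0.17 and no longer called (limma adjusted p = 0.0554). Dlg4 had 52.8, 53.3 and 58.5 RPKM with TTX, overlapping the untreated libraries (95% interval -0.21 to 0.09). Dlgap1 had 41.2, 42.5 and 43.5 RPKM with TTX and a difference of -0.12 (limma adjusted p = 0.0686), which was called at -0.18 after quantile and cyclic loess scaling and at -0.17 without untreated library 2. Dlgap4 had 34.4, 34.4 and 34.5 RPKM with TTX, above all untreated libraries, yet its difference of 0.09 did not pass (95% interval -0.01 to 0.20).

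Between the drug treatments, Bic/4AP against TTX, 7 of the 10 genes were lower, Dlg2 was higher and 2 did not pass. Of all genes, 53.1% were called lower and 23.7% higher, 76.8% in either direction. Groups did not overlap for 9 of the 10, against 81.5% of all genes. The median difference was -0.50 over the 10 genes and -0.33 over all genes. In level classes 8, 9 and 10, which hold the scaffold genes, the median over all genes was -0.27, 0.03 and 0.50. Dlgap3 had the largest fall, to 0.47 times the TTX mean, with a log2 difference of -1.05 (SE 0.055, limma adjusted p = 2.16e-08). Shank3 and Shank2 each fell by 0.61 on the log2 scale, Dlgap2 fell by 0.59, Dlgap4 by 0.55 and Dlg3 by 0.45. After quantile scaling Dlgap2 was at -0.16 and no longer called, and Shank2 was at -0.24. Dlg2 was 1.63 times as high, a difference of 0.70 (SE 0.063, limma adjusted p = 8.87e-07), which was still called but only 0.13 and 0.09 after quantile and cyclic loess scaling. Shank1 was near the threshold, at -0.22 (SE 0.091, limma adjusted p = 0.0424), and was lost without any one of TTX libraries 1, 2 and 3, untreated library 1 and Bic/4AP libraries 1 and 3, with adjusted p between 0.0549 and 0.174. Dlg4 (0.09) and Dlgap1 (-0.11) did not pass as deposited, and both were called lower after the scalings, Dlg4 at -0.33 and -0.35 and Dlgap1 at -0.24 and -0.31.

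Shares within families differed between treatments as deposited. A ratio of 2 genes of 1 library does not depend on library size, though it does on the level-dependent scalings above. These shares and ratios were chosen after the values had been seen. Dlg2 made up 42.7% ± 0.914 (SD, n = 3) of the summed RPKM of Dlg2, Dlg3 and Dlg4 untreated, 52.3% ± 0.206 with Bic/4AP and 38.5% ± 0.431 with TTX. Dlg3 made up 20% ± 0.954 untreated, 14.5% ± 0.0702 with Bic/4AP and 24% ± 0.662 with TTX. The log2 ratio of Dlg2 to Dlg3 was 1.10 untreated, 1.85 with Bic/4AP and 0.68 with TTX, and the groups did not overlap. Dlgap2 made up 27.4% ± 2.29 of the Dlgap sum untreated, 15.8% ± 1.99 with Bic/4AP and 16.6% ± 0.874 with TTX. Dlgap1 made up 40.3% ± 0.454 with Bic/4AP, against 31.9% ± 0.859 untreated, since it fell less than the others. Shank3 made up 26.6% ± 2.61 of the Shank sum untreated, and more with either drug: 34.5% ± 1.63 with Bic/4AP and 38.4% ± 0.579 with TTX. Of 12 pairs within families, groups were apart for 11 with Bic/4AP against untreated, 11 with TTX against untreated and 10 with Bic/4AP against TTX. Of single genes, 71.3%, 69.6% and 81.5% were apart in these comparisons, and the share for gene pairs in general was not computed. With 3 libraries against 3 the exact two-sided permutation test cannot give less than p = 0.1, so no pair can pass 0.05. The log2 ratio of Dlgap3 to Dlgap4 was -0.25 with Bic/4AP and -0.27 untreated, with overlapping groups, and both genes fell.

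**Figure D3:**
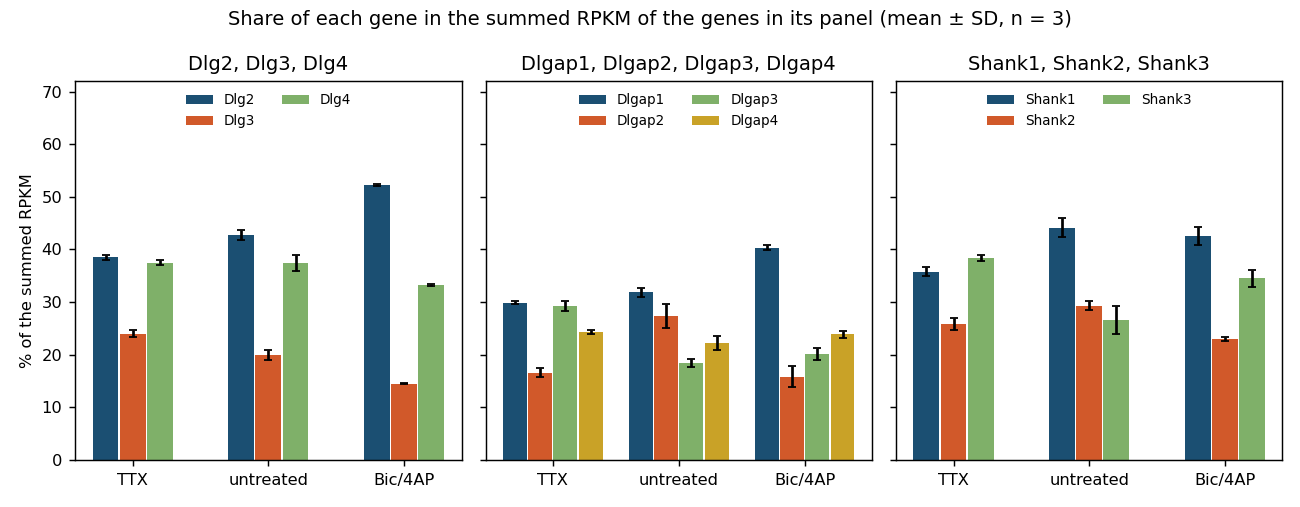
Share of each gene (vertical axis, % of the summed RPKM of the genes in its panel) with TTX, untreated and with Bic/4AP. Bars are means with SD over 3 libraries. The share of Dlg2 is highest with Bic/4AP (52.3%), that of Dlgap2 is highest untreated (27.4%), and that of Shank3 is lowest untreated (26.6%).

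Summed over families, the Dlg genes had 174 to 177 RPKM with Bic/4AP, 142 to 159 untreated and 140 to 154 with TTX. The direction of the Dlg sum turned with the scaling: it was 146 to 150 with Bic/4AP and 164 to 168 untreated after quantile scaling, and 142 to 146 and 162 to 174 after cyclic loess scaling. The Dlgap genes had 94.8 to 98.6 RPKM with Bic/4AP, 136 to 156 untreated and 139 to 144 with TTX. The Shank genes had 68.5 to 77.4 RPKM with Bic/4AP, 104 to 126 untreated and 99.5 to 103 with TTX. The Dlgap and Shank sums were lower in every Bic/4AP library than in any other library, as deposited and after both scalings.

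Proteins that bind these scaffolds were followed as 3 lists. Of 30 partners of PSD-95 and Shank, 10 were higher and 17 lower with Bic/4AP than untreated, with a median log2 difference of -0.29, against 29.6% higher, 42.5% lower and a median of -0.12 over all genes. Homer1, whose product binds Shank, rose from 30.1 ± 0.957 to 72.1 ± 2.51 RPKM (SD, n = 3), while Tanc1, a scaffold that binds PSD-95, fell from 28.1 ± 3.93 to 7.71 ± 0.199. Kalrn, an exchange factor for Rac in spines, fell from 50.9 ± 6.64 to 20.2 ± 0.588 RPKM. With TTX, 12 partners were higher and 12 lower than untreated (40.6% and 23.5% of all genes), among them Tanc1 (lower, 13.2 ± 0.71 RPKM) and Nos1, the neuronal nitric oxide synthase held by PSD-95 (higher, 20 ± 1.09 against 12.9 ± 0.607). With Bic/4AP against TTX, 8 were higher and 19 lower (23.7% and 53.1% of all genes). The gene list holds Homer1 as 1 gene, so its short and long transcripts cannot be told apart.

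Of 29 tested membrane proteins that Dlg scaffolds hold, 12 were higher and 10 lower with Bic/4AP than untreated, 14 and 12 with TTX than untreated, and 10 and 13 with Bic/4AP than with TTX. The shares over all genes were 29.6% and 42.5%, 40.6% and 23.5%, and 23.7% and 53.1% in the same order. Grin2a, an NMDA receptor subunit, had 53.3 ± 7.32 RPKM in untreated cultures and was lower with either drug, at 25.2 ± 1.41 with Bic/4AP and 25.4 ± 0.809 with TTX. Cacng8, an AMPA receptor auxiliary protein, fell from 35.4 ± 6.54 to 7.27 ± 0.256 RPKM with Bic/4AP. The adhesion gene Lrrtm2 rose from 35.8 ± 1.72 to 60.5 ± 2.24 RPKM. Of 8 measured genes of the inhibitory postsynaptic scaffold, 6 did not pass with Bic/4AP against untreated, a comparison in which 72.1% of all genes were called. Shisa7, a GABA-A receptor auxiliary protein, fell from 37.9 ± 2.67 to 24.7 ± 1.73 RPKM. With TTX, 3 of these 8 were higher and 4 lower than untreated, against 40.6% and 23.5% of all genes.

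Profiles over the 9 libraries were compared with those of 10984 genes by the root mean square difference of centred log2 values. The closest gene to Dlg2 was Mapre2 (0.0201), that to Dlgap2 was Irak1 (0.0637) and that to Shank2 was Cacna1b (0.0478), a calcium channel gene. The closest to Shank1 was Cnnm1 (0.0486), to Shank3 Dmwd (0.0395), to Dlgap3 Aamp (0.055) and to Dlgap4 Atp8a2 (0.0338). Luc7l (0.0214) was closest to Dlg3, Nisch (0.0302) to Dlg4 and Lphn1 (0.0341) to Dlgap1. Among the scaffold genes, Dlgap2 was closest to Shank2 (0.219), which ranked 222nd of the 10984 genes for Dlgap2. Shank1 and Shank2 were closest to each other (0.172), with Shank2 ranking 228th for Shank1 and Shank1 361st for Shank2. Dlg3 and Shank3 were also closest to each other (0.0923), with Shank3 ranking 234th for Dlg3 and Dlg3 156th for Shank3. The nearest scaffold gene to Dlg2 was Dlg4, but at 0.262 it ranked only 2481st of the 10984 genes.

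H3K27ac peaks were compared in 2 pairs of lists, each with 1 untreated and 1 Bic/4AP list, the second being those whose titles name a repeat. The first pair holds 4846 untreated and 7721 Bic/4AP peaks, and the second 49701 and 55035, so results are given for each pair. The authors' scores run from 50 up to 3233. They are not on 1 scale across lists of such different size, and are given below to identify peaks, not to compare treatments. A locus is the gene with 10 kb below its lowest coordinate, and coordinates are of mm10 as the files give them. No test between peak lists was made.

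Start-site H3K27ac peaks were present in untreated lists for most of the 7 genes. Of the 7 genes with a start site, 5 had a peak within 1 kb of one in the first untreated list and 4 in the first Bic/4AP list, against 15.1% and 32.6% of 10680 genes with an entry. In the second pair 6 of 7 had one in each list, against 44.2% and 57.1%. A gene counted if any of its start sites had a peak, and the 7 genes have 13 start sites. The background genes were not matched for number of start sites or for expression level. Dlg2, Dlg4, Dlgap1 and Dlgap4 had one in all 4 lists. Shank3 had one in all except the first Bic/4AP list. Dlgap3 had one only in the second pair, covering 37 bases within 1 kb of its start site untreated and 156 with Bic/4AP. All 4 lists held a peak within 1 kb of the lower end of the Dlgap3 gene, which is not among these start sites. Those peaks scored 88.2 and 191 in the first pair and 1488 and 3100 in the second. Dlg3 had none at a start site in any list, and its whole locus held 1 peak (score 76.9, second untreated list). That peak lay within 1 kb of the lower end of the Dlg3 gene, also not among these start sites.

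Within 1 kb of the printed start sites, Dlgap4 had a peak scoring 65.3 in the first untreated and 105 in the first Bic/4AP list, and 1312 and 3004 in the second pair. The first pair's peaks covered 662 and 898 of the 2000 bases around it, and the second pair's covered all. The first Dlgap1 start site had peaks scoring 56 and 167 and then 1770 and 3131, of which the first reached only 38 of the 2000 bases. The second Dlgap1 start site had a peak only in the second Bic/4AP list (220). Within 1 kb of the Shank3 start site the scores were 88.9 and no peak, then 674 and 478.

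With Bic/4AP, H3K27ac peaks of the second pair covered more of 8 of the 10 loci and less of 2, against 7327 with more and 2961 with less of all 13924 loci. Peaks covered 32.8% of the Shank1 locus untreated and 69.9% with Bic/4AP, and 13.9% and 39.9% of the Dlgap1 locus. They covered 13.5% and 31.3% of the 1973059-base Dlg2 gene with its flank, which is 268 and 621 kb, and 26.2% and 37.7% of the Dlg4 locus. These 4 of 10 gained 10 percentage points or more, as did 9.65% of 13924 tested genes, and 0 of 10 lost as much, against 2.27%. The threshold was chosen after the values had been seen. All peaks of the second pair together covered 71.6 Mb untreated and 86.3 Mb with Bic/4AP. Only 0.625% of genes gained more than Shank1, 1.95% more than Dlgap1 and 4.15% more than Dlg2. Genes of 400 kb or longer, 4 of them scaffold genes, had a median gain of 0.242 points. Dlgap4 went from 7.04% to 12.2%, Dlgap2 from 7.61% to 10.2%, Shank2 from 9.02% to 10.9% and Shank3 from 3.3% to 4.05%. Dlgap3 went from 6.71% to 5.57%.

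The first pair did not show this for every gene. Cover of Dlg2 was 0.475% untreated and 0.408% with Bic/4AP, and that of Shank1 1.67% and 1.76%. Dlgap1 went from 0.138% to 1.3% and Dlg4 from 1.64% to 12.3%, so Dlg4 was the only one of the 10 to gain 10 points in both pairs. The RNA of these 4 genes did not move one way: Dlg2 was higher as deposited, Dlg4 did not pass, and Dlgap1 and Shank1 were lower.

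**Figure D4:**
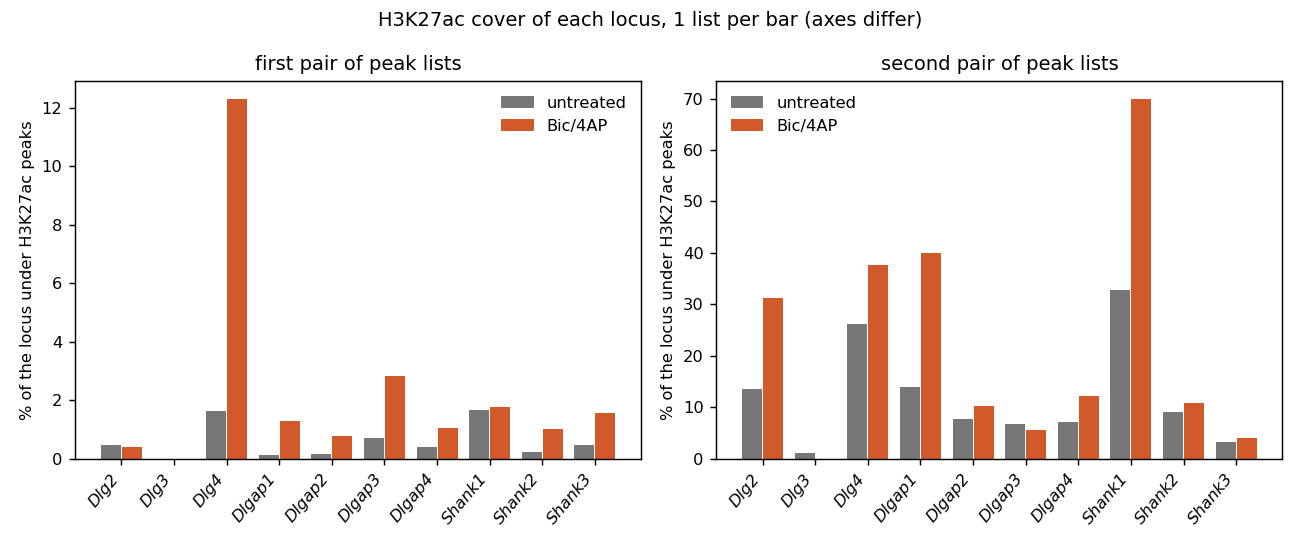
Share of each locus under H3K27ac peaks (vertical axes, %) untreated and with Bic/4AP, for the first and the second pair of lists, with 1 list per bar. In the second pair Shank1 goes from 32.8% to 69.9% and Dlgap1 from 13.9% to 39.9%, and in the first pair Dlg4 goes from 1.64% to 12.3%.

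Within Dlg2 the gain lay after the start site shown above. In the second pair, the 625 kb before it were covered to 15.6% untreated and 12.8% with Bic/4AP. The 1358 kb after it were covered to 12.6% by 117 peaks untreated and to 39.8% by 336 peaks with Bic/4AP. In the first pair the stretch after it was covered to 0.415% and 0.406%. This division was chosen after the peaks had been seen.

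**Figure D5:**
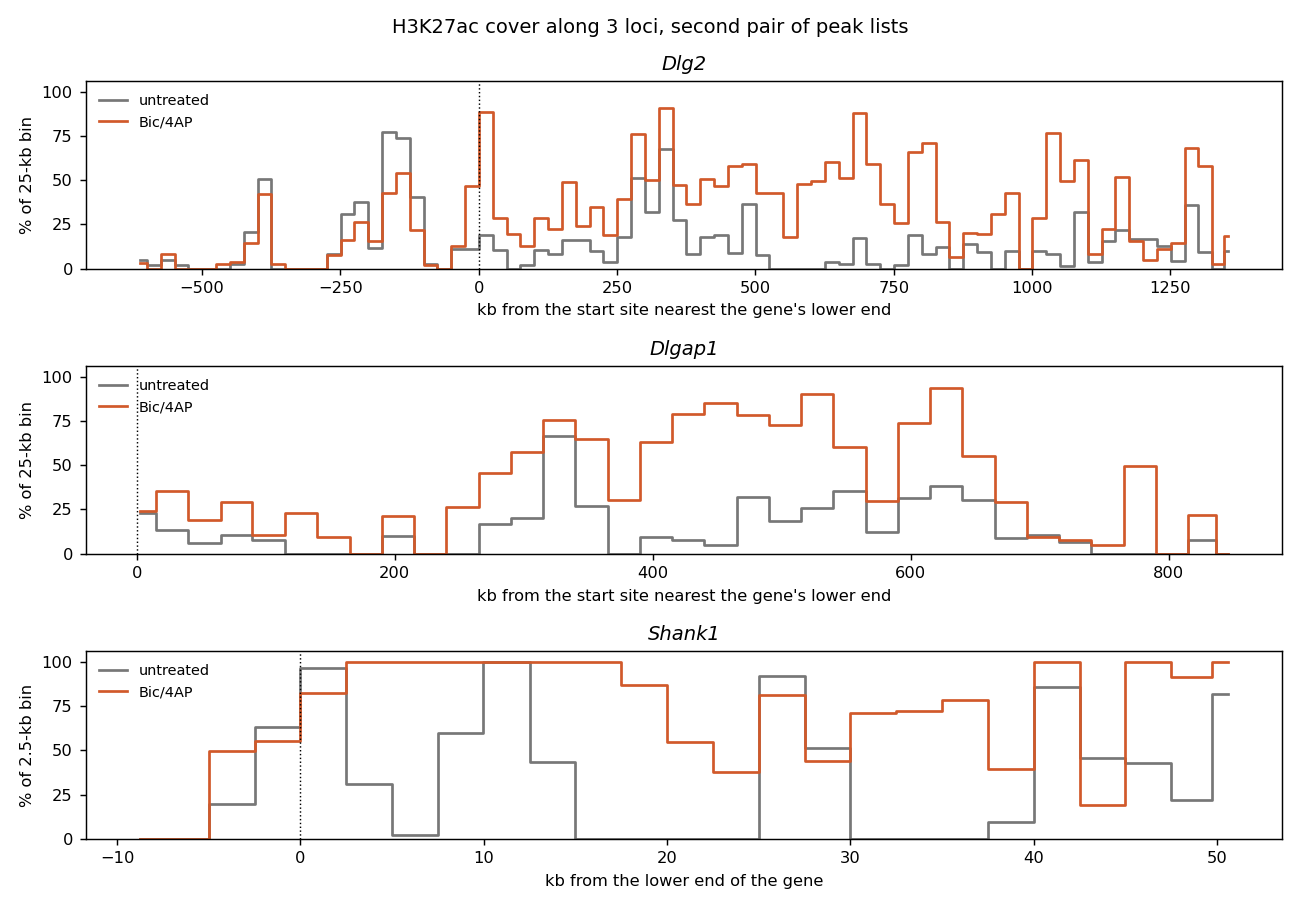
Share of bins (25 kb for Dlg2 and Dlgap1, 2.5 kb for Shank1) under H3K27ac peaks of the second pair of lists, by distance in kb from the start site nearest the lower end of the gene, or from the lower end for Shank1. Dotted lines mark 0. With Bic/4AP the cover of Dlg2 after its start site is 39.8% against 12.6% untreated, while before it the cover is 12.8% against 15.6%.

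Merged over the 4 lists, the 10 loci held 703 acetylated regions. Only 12 were in all 4 lists: 3 each at Dlg2 and Dlgap1 and 1 each at Dlg4, Dlgap2, Dlgap3, Dlgap4, Shank1 and Shank2. A further 203 were in other mixtures of lists with both treatments. A total of 424 were in 1 Bic/4AP list only, of which 245 were at Dlg2 and 116 at Dlgap1, and 62 were in 1 untreated list only. The first pair holds far fewer peaks than the second, which limits how many regions can be in all 4 lists. Shares of these classes over all loci were not computed. Just 1 region was in both Bic/4AP lists and no untreated list. It lies in the Dlgap1 gene at chr17:70654157-70654610, 92.4 kb from the nearest start site in the table, with scores of 56.7 and 51.8. Likewise, 1 region was in both untreated lists and no Bic/4AP list. It lies at the lower end of the Dlg2 gene at chr7:90476114-90477342, with scores of 59.6 and 365, and its 46 CpGs had a mean methylation of 0.011 with TTX, 0.015 untreated and 0.008 with Bic/4AP. All 4 of these scores but the last are under 100, so neither region is in both lists at a score of 100 or more. The second Bic/4AP list held a separate peak, scoring 82.6, within 1 kb of the same end of the Dlg2 gene.

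The number of H3K4me1 peaks per length differed between the loci. In the first of its 2 untreated lists, Dlgap2 held 67 peaks, Shank2 46, Dlg2 41, Dlgap1 22 and Dlgap4 22. Per 100 kb this was 8.73 at Dlgap2, 10 at Shank2 and 13.7 at Dlgap4, but 2.07 at Dlg2 and 2.55 at Dlgap1. Dlg4, a short gene, held 8 peaks, 20.9 per 100 kb, of which 2 overlapped the second list. The second list held only 2 peaks at Dlg4, and 65 at Dlgap2, 35 at Shank2, 35 at Dlg2, 14 at Dlgap1 and 22 at Dlgap4. Peaks per length over all genes were not computed. Of the Dlgap2 peaks 13 of 67 overlapped a peak of the second list, as did 11 of 46 at Shank2 and 4 of 41 at Dlg2. Dlg3 held none in either list. Within 1 kb of a start site, 1 of 7 genes (Dlg4) had an H3K4me1 peak in the first list and 0 of 7 in the second, against 1.45% and 1.47% of genes with an entry.

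Methylation of CpGs over gene bodies differed little between treatments. It is given as a fraction per CpG without coverage, from 1 library a treatment, so no error can be given. Mean gene-body methylation ran from 0.387 at Shank1 to 0.798 at Dlgap2 untreated, against a median of 0.665 over 13501 genes. At Shank1 it was 0.385 with TTX, 0.387 untreated and 0.384 with Bic/4AP, and at Dlgap2 0.799, 0.798 and 0.796. The largest difference from untreated with Bic/4AP was -0.009, at Dlg3. Over all genes the quartiles of this difference were -0.006 and 0.004.

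Start sites differed far more from each other than between treatments. Within 1 kb either side, mean methylation at Dlgap4 was 0.008 with TTX, 0.014 untreated and 0.010 with Bic/4AP over 131 CpGs. At Shank3 it was 0.014, 0.015 and 0.007 over 121 CpGs in the same order. The first Dlgap1 start site had 0.033, 0.035 and 0.033 over 125 CpGs, and the second 0.862, 0.854 and 0.867 over 38 CpGs. The Dlg2 start site shown above had 0.099, 0.182 and 0.151 over 36 CpGs, and a further Dlg2 start site, at position 92062394 and with no H3K27ac peak, had 0.949, 0.960 and 0.963 over 6 CpGs. The Dlg3 start site at position 100777271 had 0.203, 0.202 and 0.114 over 32 CpGs. Over 13551 start sites of tested genes, the quartiles of the difference from untreated were -0.006 and 0.006 with TTX and -0.007 and 0.005 with Bic/4AP. Differences of Dlg2 with TTX and of this Dlg3 site with Bic/4AP lay outside these quartiles, as did others. In the printed Dlgap4 promoter all 50 CpGs were measured, and their mean was 0.004, 0.009 and 0.006. In the second Dlgap1 promoter the 7 CpGs had a mean of 0.762, 0.855 and 0.787. In the Dlg2 promoter the 3 CpGs had a mean of 0 with TTX, 0.335 untreated and 0.311 with Bic/4AP, values for which the number of reads is unknown. No CpG of the Shank3 promoter was listed in all 3 libraries.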

How the data were processed

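The deposited RNA values are RPKM per gene and library. Per the submitters' processing notes, the tools were MACS 1.4.1, SAMtools 0.1.19, Bowtie2 2.2.4 and TopHat, on mm10. Libraries were directional and from poly(A) RNA, per the labels' protocols; whether reads were counted by strand is not stated in the sources used here. The RPKM came out as whole reads, within 0.15 of a read, for 19585 of 19588 genes above 0 in 3 or more libraries, which gave the library sizes. Differences were tested with limma 3.58.1 (R 4.3.3, intensity trend) on log2(RPKM + 1) in 1 fit of all 9 libraries, for genes at 1 RPKM or more in 3 or more libraries; all 10 scaffold genes passed this filter. The scale understates changes of low genes. Tested on simulated data, the fit missed part of the small changes, mostly of low genes but also of higher ones, and in Bic/4AP against untreated it made more false calls than the nominal rate; its pass level was set after the first simulations.

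Peak positions and the score per peak are as the authors deposited them, 1 list per sample; whether positions count from 0 or 1 is not stated there. The deposited methylation values are a fraction per CpG without coverage, averaged over CpGs listed in all 3 libraries, in windows of 5 or more.

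The members and lists were chosen with earlier results of these data known. Genes named beside the 10 are Fos, Arc and Npas4, up to 3 per list, direction and comparison by smallest p, and each member's nearest profile. Start sites come from the RefSeq promoter table in place of gene starts, since the gene table gives no strand. Alternatives tried were a pseudocount of 0.1, no filter, quantile and cyclic loess scaling, fits of 2 groups, a replicate block, voom on recovered reads, leaving out each library, other windows, a score of 100 and other overlaps. The input sample was not used here. Of the 10 genes of the inhibitory scaffold list 8 are in the files, and 1 of those is not reported here.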

Additional observations from a re-analysis of the deposited data

How the results depend on the processing

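After quantile and cyclic loess scaling 0 members were called higher with Bic/4AP than untreated, in place of 1: Dlg2 changed sign to -0.01 and -0.03, and Dlg4 to -0.32 and -0.38. In Bic/4AP against TTX, Dlg4 changed sign to -0.33 and -0.35. The cause was not tested. The counts called lower with Bic/4AP than untreated were 8 without each library in turn and 8 to 9 under the other settings. Replicate numbers did not pair the libraries (correlations of deviations between -0.17 and 0.04); with the replicate block 6 members were called lower in Bic/4AP against TTX in place of 7, Shank1 being lost at -0.22 (limma adjusted p = 0.0536), and the block changed no other call of a member. Of the 480 recomputed log2 differences of members, 11 kept their sign but were no longer called, 8 kept their sign and became called, and 10 changed sign. Of those 10, 4 (Dlg4 and Dlgap4) were called in neither fit. Those of Dlg2 in Bic/4AP against untreated, after quantile and cyclic loess scaling, also lost their call. At a score of 100 or more, 0 regions were in both lists of one treatment alone, in place of 1 for Bic/4AP and 1 for untreated. At that score 1 member of 7 had a start-site peak in the first untreated list, in place of 5. Of 10680 genes with an entry 4.83% had one, in place of 15.1%. Leaving out 1 list makes a single list stand for both, so counts rise by construction: to between 1 and 425 for Bic/4AP and between 1 and 63 for untreated. In variants chosen after seeing the data, the summed RPKM of the Dlg genes, Bic/4AP minus untreated, turned from 22.2 to -17.9 with quantile and -23 with cyclic loess scaling. In other such variants, 2 members gained 20 points of cover (3.26% of all loci) and 5 gained 5 points (20.4%). In the first pair 1 member, Dlg4, gained 10 points, and 1.07% of loci gained more than Dlg4. Median methylation over member start sites was 0.212 with TTX, 0.202 untreated and 0.178 with Bic/4AP. It was 0.145, 0.162 and 0.15 within 500 bases, and 0.083, 0.095 and 0.035 as a median over CpGs. Over gene bodies, medians over CpGs were 0.789, 0.781 and 0.782 in place of 0.620, 0.619 and 0.612. Depth was lowest with Bic/4AP, and the coverage behind methylation values is unknown.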
